A study of Mus musculus with 2 samples.

Results

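Microexons are internal exons so short that the proteins bound to the splice sites at their ends crowd each other, and most of them need helper proteins to be recognised. In neurons the RNA-binding protein Srrm4, with its relative Srrm3, binds upstream of them and promotes their inclusion together with Srsf11 and Rnps1. Rbfox proteins also promote many of them, while Ptbp1, which dividing progenitors make, blocks many. A microexon whose length is a multiple of 3 adds or removes a few amino acids without shifting the reading frame, and many neural ones lie in proteins of the cytoskeleton, of vesicle traffic and of synapses.

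The microexons described here are the exons of 3 to 27 bases in the deposited mm9 exon table of Ensembl 65 models, each counted once by position and strand, for which the deposited junction list held at least 1 junction at each side. That table held 351001 exons, and 7677 of them were of this length. Of these, 2732 had a junction at neither side, 3871 at 1 side only and 1074 at both. The 1074 members, thus selected on length and on having junction reads, lay in 876 genes. RNA came from C57BL/6J embryos of the mouse at day 11.5, from tissue labelled central nervous system, the stage at which newborn neurons settle outside the dividing progenitors. The 2 strand-specific libraries are biological replicates of 1 group with no treatment, mutation or control group, each from littermates of both sexes, and both labels name the same donor record. No comparison of conditions was possible and no p-value was computed.

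The junction list gives a read count for each replicate, under the names R1 and R2. No label ties R1 or R2 to replicate 1 or replicate 2, so the names are kept apart below. The list held 72242374 junction reads in R1 and 57754886 in R2. Inclusion is the mean of the reads over the upstream and the downstream junction of an exon, divided by that mean plus the reads over junctions that skip the exon. The mean is used because 1 read can span a microexon and be counted at both sides. An exon was measured when mean and skipping reads reached 20 over R1 and R2. This held for 891 members in 731 genes, at a median of 281 reads, and 183 members had fewer reads and are not described singly. Because the rule asks for a junction at each side, an exon never included in this tissue cannot be a member. All 95% intervals below are Wilson intervals, treat exons or reads as independent and cover counting error only.

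Of the 6 markers of young neurons all reached 1 TPM (length-corrected transcript abundance, scaled to the same total in each library) in both replicates, as did all 5 of neural progenitors. Of 5 skeletal muscle markers 2 did, and the list summed to 106 TPM in replicate 1 and 434 TPM in replicate 2. The progenitor markers summed to 3592 TPM in replicate 1 and 1799 TPM in replicate 2. All 4 red blood cell markers reached 1 TPM in both replicates, with sums of 10513 TPM in replicate 1 and 16547 TPM in replicate 2. All 3 connective tissue markers did, with 453 and 383 TPM, and 4 of 5 surface epithelium markers, with 30.7 and 37.5 TPM. The young neuron markers summed to 1640 and 1300 TPM. Against the direction of their sums went Pdgfra of connective tissue (18.5 and 50.8 TPM in replicates 1 and 2), Gata1 of red blood cells (9.71 and 7.66 TPM) and Dcx of young neurons (48.2 and 57.9 TPM). The other listed markers went with theirs. Of these 6 lists 0 markers were at 0 in both replicates. The part of these other cell types in the microexon values was not tested. In such bulk tissue a microexon used in fewer cells and one used at a lower rate in each cell cannot be told apart.

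Sequences of the members that carry the results came from GENCODE M21 transcripts, matched by gene, exon length and the lengths of both introns. The match succeeded for 1025 of the 1074 members and 859 of the 891 measured ones. Of these 859, 778 (90.6%) were wholly coding. Positions in the lines below are mm10, each sequence reads 5′ to 3′ along the transcript, capitals mark the microexon and lower case the 10 bases of the spliced neighbouring exon on each side. The first set holds the shortest measured member, a strongly skipped lysosomal gene, a chromatin gene and kinase-pathway genes whose inclusion was intermediate.
Clasp2, 3 bases, chr9:113887045-113887047, plus strand: tcatggcaagAGAgtgttcagca
Psap, 9 bases, chr10:60297537-60297545, plus strand: gatgcacatgCAGGATCAGcaacccaagg
Kdm1a, 12 bases, chr4:136563438-136563449, minus strand: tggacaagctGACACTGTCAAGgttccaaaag
Src, 18 bases, chr2:157458843-157458860, plus strand: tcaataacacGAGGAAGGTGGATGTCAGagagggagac
Git1, 27 bases, chr11:77502829-77502855, plus strand: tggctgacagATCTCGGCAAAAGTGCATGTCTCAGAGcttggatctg
Mark3, 27 bases, chr12:111651958-111651984, plus strand: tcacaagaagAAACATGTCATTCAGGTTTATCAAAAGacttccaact

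The next set pairs microexons of gene relatives whose letters are close to each other and whose inclusion differed widely or hardly at all. They are shown so that the values further below can be read against the sequence.
Macf1, 18 bases, chr4:123364057-123364074, minus strand: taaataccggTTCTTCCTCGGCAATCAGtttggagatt
Dst, 18 bases, chr1:34296742-34296759, plus strand: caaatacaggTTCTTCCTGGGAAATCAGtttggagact
Rapgef6, 24 bases, chr11:54671655-54671678, plus strand: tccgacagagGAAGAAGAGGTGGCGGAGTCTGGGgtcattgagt
Rapgef2, 24 bases, chr3:79082624-79082647, minus strand: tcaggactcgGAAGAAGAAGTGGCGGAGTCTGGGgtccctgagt
Slit1, 24 bases, chr19:41638883-41638906, minus strand: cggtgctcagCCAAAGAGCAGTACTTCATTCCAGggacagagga
Slit2, 24 bases, chr5:48220967-48220990, plus strand: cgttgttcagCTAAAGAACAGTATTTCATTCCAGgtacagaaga
Tenm2, 21 bases, chr11:36054926-36054946, minus strand: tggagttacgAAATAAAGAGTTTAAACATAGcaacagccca
Tenm3, 21 bases, chr8:48287133-48287153, minus strand: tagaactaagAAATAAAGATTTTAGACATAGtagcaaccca
Tenm4, 21 bases, chr7:96854717-96854737, plus strand: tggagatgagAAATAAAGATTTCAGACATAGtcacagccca
Eif4g1, 21 bases, chr16:20674786-20674806, plus strand: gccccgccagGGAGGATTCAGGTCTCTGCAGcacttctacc
Eif4g3, 21 bases, chr4:138095909-138095929, plus strand: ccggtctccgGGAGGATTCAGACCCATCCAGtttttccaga
Pcbp2, 24 bases, chr15:102474131-102474154, plus strand: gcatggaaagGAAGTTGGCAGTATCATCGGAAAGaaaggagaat
Pcbp4, 24 bases, chr9:106460276-106460299, plus strand: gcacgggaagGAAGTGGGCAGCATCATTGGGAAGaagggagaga

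The last set shows microexons that follow each other directly in the transcript, so that the lower case of 1 line is in part the capitals of the next.
Dctn1, 21 bases, chr6:83183936-83183956, plus strand: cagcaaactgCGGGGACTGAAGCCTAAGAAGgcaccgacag
Dctn1, 18 bases, chr6:83186428-83186445, plus strand: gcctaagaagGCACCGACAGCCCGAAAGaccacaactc
Dctn1, 21 bases, chr6:83187764-83187784, plus strand: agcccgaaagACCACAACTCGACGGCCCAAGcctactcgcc
Clasp2, 24 bases, chr9:113858581-113858604, plus strand: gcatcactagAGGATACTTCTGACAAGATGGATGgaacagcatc
Clasp2, 18 bases, chr9:113860120-113860137, plus strand: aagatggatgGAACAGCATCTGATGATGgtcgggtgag
Col23a1, 27 bases, chr11:51560007-51560033, plus strand: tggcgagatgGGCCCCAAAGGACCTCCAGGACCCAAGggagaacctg
Col23a1, 27 bases, chr11:51561889-51561915, plus strand: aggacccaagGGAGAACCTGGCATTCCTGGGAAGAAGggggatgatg

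Microexons were skipped far more often than longer exons. Inclusion lay under 90% for 365 of the 891 measured members (41.0%, 95% interval 37.8 to 44.2%), and 4.99% of all 134871 measured exons of the same table fell there. For exons of 28 to 51 bases the share was 13.2%, for 52 to 99 bases 6.13%, for 100 to under 200 bases 3.70% and for 200 or more bases 3.51%. Inclusion lay under 10% for 129 microexons (14.5%, background 1.27%) and between 10 and 90% for 236 (26.5%, background 3.72%). The other 526 stood over 90%, so the median over all measured microexons was 98.2%. These values take as skipping only the junction between the neighbouring exons. When every junction spanning the exon counted as skipping, 76.8% of 1028 microexons stood under 90% and the median was 51.6%. Longer exons were not counted in this way, so the comparison with them holds for the first count only.

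Skipping was more frequent the shorter the microexon. The 21 measured members of 3 to 9 bases had a median inclusion of 5.91%, and 19 of them stood under 90%. The median was 20.4% for the 89 members of 10 to 15 bases, 95.1% for the 257 of 16 to 21 bases and 99.9% for the 524 of 22 to 27 bases. The length limit fell on a slope. Among members of 25 to 27 bases 28% stood under 90%, and just outside the limit, at 28 to 30 bases, 19.7% did. The share with a length divisible by 3 was 64.1% at 25 to 27 bases and 54.3% at 28 to 30.

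**Figure D1:**
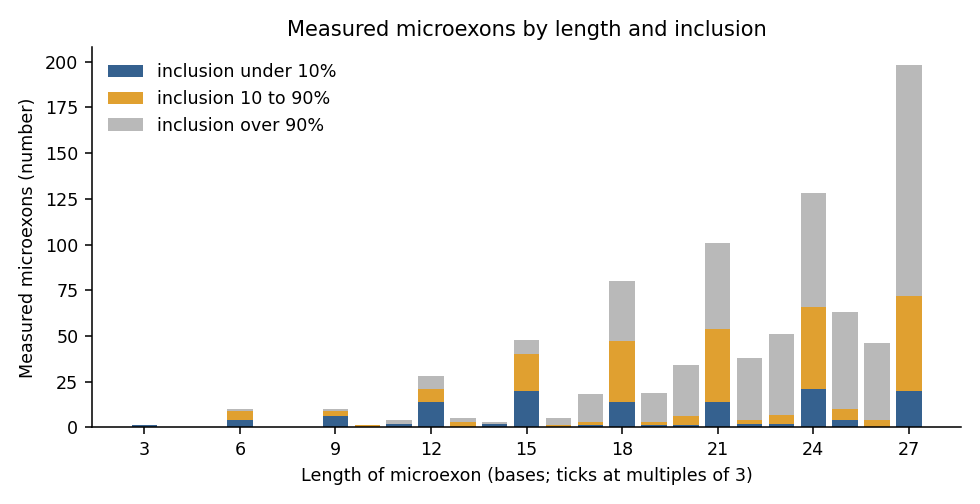
Number of measured microexons (vertical axis) at each length from 3 to 27 bases (horizontal axis), stacked by pooled inclusion class. Lengths that are multiples of 3 rise above their neighbours, and the blue and orange parts, inclusion under 10% and 10 to 90%, make up most of the bars at 3, 6, 9, 12 and 15 bases.

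Exons of 3 to 6 bases ranged from almost never to always included. Of the 10 measured members of 6 bases 4 stood under 10%, 5 between 10 and 90% and 1 over 90%. The 4 under 10% were also the most deeply read, and the other 6 had at most 113 reads each. The 3 base exon of Clasp2, a protein that tracks and stabilises growing microtubule ends, had 2 and 0 upstream reads, 0 and 2 downstream reads and 137 and 68 skipping reads in R1 and R2, which gave 0.725% in R1 and 1.45% in R2. With 2 reads at each side it rests on almost nothing. The 6 base exon of Taf1, a subunit of the general transcription factor TFIID with a neuron-specific microexon, stood at 0.26% in R1 and 0.362% in R2. It too had few inclusion reads, 1 and 1 upstream and 0 and 1 downstream. The 6 base exon of Clip1, another microtubule plus-end protein, stood at 2.58% in R1 and 2.91% in R2. Those of Nsfl1c (3.53% in R1 and 15.7% in R2) and Nsmf (4.21% in R1 and 3.88% in R2) had flanks more than 4-fold apart in reads, so these 2 values are not firm. Among the other 6, 2 are given here that were chosen after their values were seen. Ap2m1, the medium subunit of the endocytic AP-2 adaptor, stood at 50.4% in R1 and 36.6% in R2 with flanks more than 4-fold apart, and Phb2, a prohibitin of the inner mitochondrial membrane, at 100% in R1 and 100% in R2 with a shared splice site.

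Length divisible by 3 went with skipping. Among all 1074 members 66.9% (64.0 to 69.6%) had a length divisible by 3, against 46.4% of exons of 28 to 51 bases and 40.0% of all exons with a junction at each side. The share was 88.4% (114 of 129) for microexons with inclusion under 10%, 86.9% (205 of 236) at 10 to 90% and 54.2% (285 of 526) over 90%. Longer exons showed a smaller step between skipped and included ones. Of the exons under 90% inclusion 87.4% were divisible by 3 at 3 to 27 bases, 63.0% at 28 to 51 bases and 44.7% at 52 or more bases. In the members whose splice sites belong to no other exon and whose 2 flanks lie within 4-fold, the shares were 92.9%, 91.2% and 56.1% in the 3 inclusion classes.

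**Figure D2:**
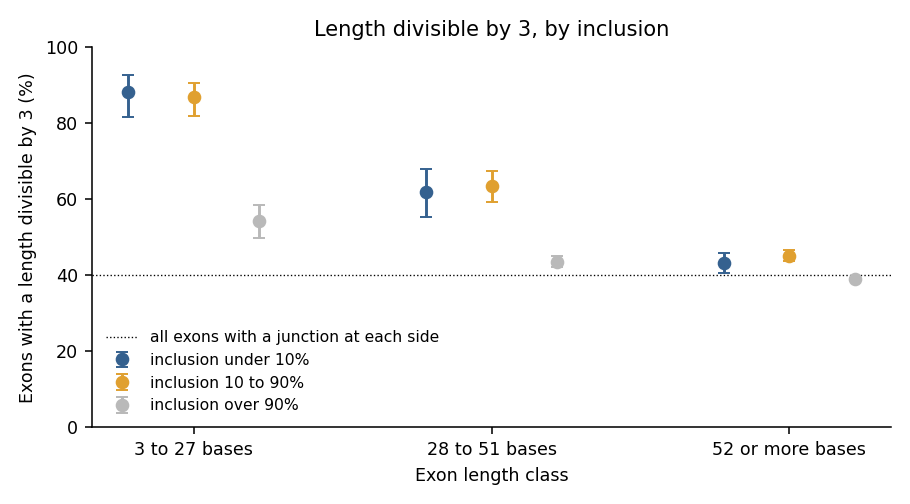
Share of exons whose length is divisible by 3 (vertical axis, percent) for microexons and 2 classes of longer exons (horizontal axis), split by pooled inclusion, with 95% Wilson intervals as bars. Microexons under 90% inclusion stand near 87%, and the dotted line marks the 40.0% of all exons with a junction at each side.

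Of the members of their own splice sites and balanced flanks, 23 were skipped with a length not divisible by 3, and 14 of these 23 were wholly coding in M21. Phf21b, related to a histone reader of the CoREST complex, had an exon of 23 bases at 81% in R1 and 74.7% in R2. The calcium channel beta subunit genes each carried a 20 base exon, at 87.4% in R1 and 83.5% in R2 for Cacnb3 and at 76.6% in R1 and 60.8% in R2 for Cacnb1. That of Cacnb4 stood at 42.9% in R1 and 76.7% in R2 on 35.5 reads in all. In these genes a longer exon is known to take the place of the short one, and junctions to such an exon are not counted as skipping here. Tcf7l2, a transcription factor of the Wnt pathway, had a 25 base exon at 38.8% in R1 and 43.9% in R2. These 5 were chosen after their values were seen.

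Members over 90% included a group with a repeated length. Collagen genes held 58 measured microexons in 21 genes, 45 of them of exactly 27 bases, 55 with a length divisible by 3 and 54 over 90%. Triple-helical collagen domains are known to be encoded in exons built from 9 base repeats. Without collagen genes 49.6% (234 of 472) of the members over 90% were divisible by 3. The 3 genes with the most measured members were BC051142 with 15, Col13a1 with 11 and Col23a1 with 7, followed by Clasp2 and Col25a1 with 6 each.

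Base content differed from that of longer exons by a few points, and the reading phase was spread more evenly. Matched microexons had 48.7% G and C, against 50.8% in matched exons of 52 to under 200 bases, and microexons under 10% inclusion had 45.9%. A made up 30.3% of microexon bases, against 26.7% in the longer exons, and C 21.97% against 24.6%. Of the microexons 79.98%, against 79.99% of the longer exons, ended in G. The first base was G in 22.6% of microexons under 10% inclusion, in 35.1% of those at 10 to 90%, in 47.0% of those over 90% and in 48.7% of the longer exons. Of 544 wholly coding microexons with a length divisible by 3, 45.8% began with a whole codon, 17.8% 1 base before one and 36.4% 2 bases before one. In the longer exons of 52 to under 200 bases these shares were 60.3%, 13.5% and 26.2%.

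The genes below come from a list of 66 hosts in 5 roles that was written with earlier results of these data known. Of them 44 had a measured microexon, 74 in all, with 21 under 10%, 42 between 10 and 90% and 11 over 90%. The median was 35.4%, beside 98.2% over all measured microexons, and 69 of 74 were divisible by 3.

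Among kinases and their adaptors 12 microexons were measured. Src, a tyrosine kinase whose neuronal form carries an insert in its SH3 domain from this exon, had 128 and 115 upstream reads, 119 and 132 downstream reads and 124 and 323 skipping reads in R1 and R2. Its 18 base exon stood at 49.9% in R1 and 27.7% in R2, lower in R2 with intervals apart. Git1, a scaffold that links Rac and Arf signalling, stood at 43.2% in R1 and 25% in R2 for its 27 base exon. The focal adhesion kinase Ptk2 held a 21 base exon at 43.9% in R1 and 31.5% in R2 and an 18 base exon at 20.5% in R1 and 13.4% in R2. The actin regulator Daam1 stood at 55.2% in R1 and 44.9% in R2. At the low end, Abi1, a part of the WAVE actin complex, stood at 2.68% in R1 and 1.92% in R2 and the Arf regulator Asap1 at 0.633% in R1 and 0.442% in R2, so both exons were mostly skipped. The Asap1 value rests on 0 and 1 upstream and 2 and 1 downstream reads in R1 and R2. Vav2, an exchange factor for small GTPases, held exons of 17 and 22 bases with no skipping read beside exons of 15 bases at 12.6% in R1 and 5.5% in R2 and at 3.25% in R1 and 1.3% in R2. Of the 11 with 20 reads in each library, 9 were lower in R2, 0 higher and 2 equal. Of the 9, 3 (Src, Git1 and the 21 base exon of Ptk2) lay at least 10 points apart with intervals apart. Over all 756 microexons with such reads 4.63% were so called lower in R2, and over the 205 at 10 to 90% 16.6% were. Among those 205, 116 (56.6%) were lower in R2 by any amount. That set is unlike this role, in which only 5 of the 12 measured microexons stood at 10 to 90%. A shift of this role as a whole was not tested.

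Among genes of membrane traffic 10 microexons were measured, none over 90% when pooled. Snap91, a clathrin adaptor of synaptic vesicle recycling, stood highest at 92.9% in R1 and 79.5% in R2, with R2 the lower. The kinesin Kif1b, which carries synaptic vesicle precursors, had 1 exon of 18 bases at 49.5% in R1 and 41.4% in R2 and 1 of 27 bases at 1.25% in R1 and 1.76% in R2. The liprin Ppfia1 stood at 25.3% in R1 and 10.2% in R2 and shares a splice site with another exon. Ppfia4, its relative, stood at 34.6% in R1 and 16% in R2 on 26 and 50 reads, and Mon2, of Golgi traffic, at 48.9% in R1 and 31.8% in R2. Exoc1 of the exocyst stood at 30.1% in R1 and 31.2% in R2, with the 2 libraries close together. Dynamin 2 (Dnm2), which cuts endocytic vesicles free, stood at 15.2% in R1 and 5.85% in R2. The membrane-bending Fnbp1l stood at 0.812% in R1 and 0.347% in R2 on 985 and 1008.5 reads. The intersectin Itsn1, known for a neuron-specific insert in an SH3 domain, stood at 0.142% in R1 and 0.102% in R2. It shares a splice site and rests on 1 and 1 upstream and 1 and 0 downstream reads in R1 and R2. Of these 10, 8 were lower in R2 and 2 higher. The 8 include Fnbp1l and Itsn1, where R2 minus R1 was only -0.465 and -0.0401 points. Of the 8, 2 (Snap91 and Ppfia1) lay at least 10 points apart with intervals apart. By that rule 4.63% of all 756 microexons with 20 reads in each library were lower in R2. At 10 to 90% the share was 16.6% of 205, and over all exons 0.346%. A shift of this role was not tested.

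Among genes of the cytoskeleton 21 were measured. Clasp2 held 6, of which 5 stood between 10 and 90%. Its 24 base exon at the start of the run stood at 49.9% in R1 and 44% in R2 and the adjoining 18 base exon at 39% in R1 and 30.5% in R2. Clasp1 stood at 65.6% in R1 and 44.4% in R2 for 27 bases and at 68.4% in R1 and 61.8% in R2 for 24 bases. The spectrin gene Sptan1 had a 15 base exon at 60.1% in R1 and 53.4% in R2 beside exons of 18 and 24 bases with no skipping read. Ank2, which anchors membrane proteins to spectrin, likewise had a 24 base exon at 52.5% in R1 and 57.7% in R2 and a 22 base exon that was always included. Dctn1, the dynactin subunit that binds microtubules, held exons of 21, 18, 21 and 15 bases, and the last stood at 46.6% in R1 and 34.2% in R2. The libraries split both ways in this group, with 7 lower and 11 higher in R2 and 3 equal.

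Among adhesion and guidance receptors 20 were measured. Robo1, the Slit receptor of commissural axons, stood at 80.4% in R1 and 67.7% in R2, lower in R2. Ptprd, a receptor phosphatase whose mini-exons are known to set its choice of synaptic partner, held 5 members, with pooled inclusion from 2.49 to 71.8%. Its 27 base exon stood at 62.2% in R1 and 77.8% in R2, higher in R2, its 18 base exon at 15.9% in R1 and 12.5% in R2 and a 12 base exon at 13.7% in R1 and 2.42% in R2, lower in R2. The adhesion molecule L1cam, which neurons make with a 12 base exon in its cytoplasmic tail, stood at 45.5% in R1 and 37.8% in R2 there. The flanks of that exon and of the 12 base exon of Ptprd just given lay more than 4-fold apart. Nfasc of the axon initial segment stood at 49.3% in R1 and 52.3% in R2 for 15 bases and at 88.7% in R1 and 82.2% in R2 for 18 bases. Nrxn2, a presynaptic adhesion gene, held 3, at 91% in R1 and 96.8% in R2 for 18 bases, at 88% in R1 and 94.6% in R2 for 27 bases and, for 24 bases, at 50% in R1 and 68% in R2, which shares a splice site. Ptprs stood at 89.9% in R1 and 77% in R2 and Ptprf at 28.7% in R1 and 32.3% in R2, while the exons of Nrcam (18 bases) and Ncam1 (15 bases) stood under 10% in both. Of 17 with 20 reads in each library 8 were lower and 9 higher in R2.

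Among genes of transcription, chromatin and RNA 11 were measured, and these stood low, at a median of 13%. Kdm1a, a histone demethylase whose neuronal form carries this 12 base exon, had 3 and 2 upstream reads, 8 and 17 downstream reads and 853 and 759 skipping reads in R1 and R2, or 0.641% in R1 and 1.24% in R2, with flanks more than 4-fold apart. The translation factor scaffolds Eif4g1 and Eif4g3 stood at 11.7% in R1 and 9.45% in R2 and at 7.97% in R1 and 5.75% in R2. The Mef2 factors, whose short beta exon is known from muscle and neurons, stood at 27.5% in R1 and 35.6% in R2 for Mef2d, 18.1% in R1 and 23.1% in R2 for Mef2a and 4.76% in R1 and 3.36% in R2 for Mef2c, the last on 10.5 reads in R1. Cpeb4, which controls the tails of messenger RNAs, stood at 37.7% in R1 and 44.6% in R2 and Trrap, a scaffold of acetyltransferase complexes, at 13.5% in R1 and 12.1% in R2. Zmynd8, a chromatin reader, stood at 1.3% in R1 and 0.744% in R2. The exception was the 23 base exon of Phf21a at 94.9% in R1 and 97.2% in R2.

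The 10 most deeply read microexons of intermediate inclusion lay in genes of varied roles. Flna, an actin cross-linker, stood at 56.6% in R1 and 70.5% in R2 on 2322.5 and 2835 reads. Macf1, a spectraplakin that links actin and microtubules, stood at 41.9% in R1 and 55% in R2. Both were higher in R2. The clathrin heavy chain gene Cltc, whose site is shared, stood at 13.6% in R1 and 8.78% in R2, Chchd3 of the mitochondrial cristae at 22.8% in R1 and 12.7% in R2, the catenin relative Arvcf at 14.8% in R1 and 17.7% in R2 and the kinesin Kif21a at 38.8% in R1 and 45.1% in R2. Nnat, an imprinted neuronal gene, gave 78.3% in R1 and 64.7% in R2, but its flanks were more than 4-fold apart and its site is shared. The 24 base exons of Gon4l and 5830417I10Rik stood at 18.5% in R1 and 30.8% in R2 and at 14.3% in R1 and 28.8% in R2. The 2 exons were letter for letter the same. Their skipping reads were also nearly equal, at 1432 and 256 for Gon4l and 1442 and 256 for 5830417I10Rik in R1 and R2. Their reads may thus be split between the 2 copies or counted at both, which was not tested.

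The 5 deepest microexons under 10% stood between 0.107 and 9.89% when pooled. Psap, the precursor of the lysosomal saposins, had 7 and 0 upstream reads, 2 and 8 downstream reads and 5527 and 2441 skipping reads in R1 and R2 at its 9 base exon, which gave 0.0814% in R1 and 0.164% in R2. The ribosome-associated Ssr1 stood at 0.401% in R1 and 0.253% in R2, the elongation factor gene Eef1d at 1.77% in R1 and 0.263% in R2, the RNA-binding Ewsr1, which shares a site, at 3.11% in R1 and 3.0% in R2 and agrin (Agrn), an organiser of neuromuscular junctions, at 11.7% in R1 and 7.29% in R2. At the other end, the 24 base exon of Pcbp2, an RNA-binding protein, and the 25 base exon of Bsg, a membrane chaperone of lactate transporters, had no skipping read in either library, which allows a skipping share of up to 0.0265% for Pcbp2 and 0.0261% for Bsg (3 counts of the pooled reads). The 25 base exon of Selenow had 1 skipping read. The deepest of all, in Uqcrh and Dbn1, share a splice site with another exon, and the Dbn1 exon had 0 and 2 downstream reads against 20520 and 5894 upstream in R1 and R2, so its 100% is not a measure of a whole exon. The deepest members of a length not divisible by 3 were those of Bsg and Selenow and the 19 base exon of Ik, all at or near 100%.

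Near-identical microexons of gene relatives could stand far apart. The 18 base exons of Dst and Macf1 shared 16 of 18 bases, yet Dst stood at 2.38% in R1 and 8.29% in R2 and Macf1 at 41.9% in R1 and 55% in R2. Those of Rapgef6 and Rapgef2, exchange factors for Rap, shared 23 of 24 bases and stood at 14.5% in R1 and 15.4% in R2 for Rapgef6 and 100% in R1 and 98.3% in R2 for Rapgef2. The guidance ligands Slit1 and Slit2 shared 21 of 24, and Slit1 had no skipping read while Slit2 stood at 29.2% in R1 and 51.2% in R2. Inclusion rests on junction reads, which also cover a neighbouring exon. Whether the neighbouring exons differ enough to tell these copies apart was not tested.

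Other relatives stood closer together, apart from Tenm2. The 21 base exons of the teneurins, transmembrane adhesion proteins, shared 20 of 21 bases between Tenm4 and Tenm3, at 10.3% in R1 and 13.7% in R2 and at 2.83% in R1 and 6.7% in R2, while Tenm2, with 19 of 21 bases shared with Tenm3, stood at 53.6% in R1 and 56.5% in R2 on 46 reads in all. Eif4g1 and Eif4g3 shared 16 of 21 and were both near or under 10%. Pcbp2, Pcbp3 and Pcbp4 shared 20 or 21 of 24 in each pair, and each stood at 100% in both libraries.

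Microexons were also spliced to each other. Junctions joined 67 pairs of members in 35 genes, 40 of these pairs on at least 20 reads in 20 genes. The collagen gene Col6a1 joined 2 exons of 27 bases with 990 reads in R1 and 326 in R2, and Nbr1, a receptor of selective autophagy, joined its 19 and 23 base exons with 413 and 593 reads. In Dctn1, whose 3 exons of 21, 18 and 21 bases add a basic stretch to the microtubule-binding end, 92 and 84 reads joined the first to the second and 366 and 223 the second to the third. The junction from the first straight to the third had 17 and 10 reads in R1 and R2. Inclusion of the first stood at 21% in R1 and 23.7% in R2, of the second at 86.9% in R1 and 81.2% in R2 and of the third at 41.3% in R1 and 42.7% in R2, and 513 and 360 reads skipped the 3 together. Those reads are not in the skipping count of the second exon, which covers only the junctions between its own partners. The second exon also shares a splice site with another exon. It had 97 and 87 upstream reads but 366 and 223 downstream reads in R1 and R2, so its inclusion is not firm. How many of the downstream reads belong to the other exon was not tested. In Clasp2, 192 and 84 reads joined the exons of 24 and 18 bases, and 60 and 44 reads joined 2 exons of 27 bases.

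Inclusion was close in the 2 libraries for most microexons. Over the 756 with at least 20 reads in each, Spearman's correlation between R1 and R2 was 0.954, and 0.852 over the 205 at 10 to 90%, as descriptions across exons that share libraries and genes. An exon was called different when R1 and R2 lay at least 10 points apart with 95% intervals that did not overlap. This held for 64 of 756 microexons (8.47%), beside 0.915% of all 120581 exons so measured. Of the 64, 29 were higher in R2 (background 0.569%) and 35 lower (background 0.346%), or 3.84% and 4.63% of the 756. Most of that gap goes with inclusion class, since at 10 to 90% the rule called 57 of 205 microexons (27.8%, 22.1 to 34.3%) and 22.3% of exons of 28 or more bases (22.6% over all lengths).

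By the rule above, the called differences were split otherwise than in longer exons. Of the 57 called microexons at 10 to 90%, 34 (59.6%, 46.7 to 71.4%) were lower in R2, whereas of 891 called exons of 28 or more bases 330 (37.0%, 33.9 to 40.3%) were. With splice sites of their own and flanks within 4-fold, 24 of 44 microexons (54.5%, 40.1 to 68.3%) were lower in R2, an interval that overlaps that of longer exons. When every junction spanning the exon counted as skipping, the split over all called microexons turned to 124 higher and 34 lower in R2 of 909. Those are microexons of all inclusion levels. Longer exons were not counted in this way, so that split cannot be set against theirs. The difference in direction is one between 2 libraries and was not tested.

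**Figure D3:**
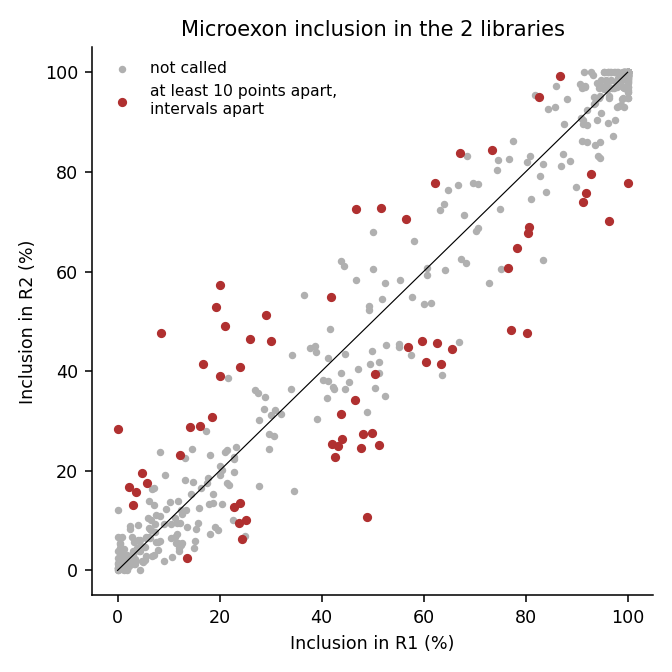
Inclusion in R2 (vertical axis, percent) against R1 (horizontal axis, percent) for the 756 microexons with at least 20 reads in each, with equal values on the line. The 64 red points are at least 10 points apart with 95% intervals that do not overlap, 29 of them above the line and 35 below it.

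The largest called differences ran both ways. Higher in R2 were Ryr1, the calcium release channel of skeletal muscle, at 8.47% in R1 and 47.6% in R2, Pclo, a scaffold of the presynaptic active zone, at 20% in R1 and 57.3% in R2, Mark3, a kinase of microtubule-associated proteins, at 19.3% in R1 and 53% in R2, Tmed2 of the early secretory pathway at 0% in R1 and 28.4% in R2 and Kifc3, a minus-end kinesin, at 21.2% in R1 and 49% in R2. Lower in R2 were Tyw5 at 48.9% in R1 and 10.7% in R2, Dclk2, a doublecortin-like kinase, at 80.3% in R1 and 47.7% in R2, Fry at 77.1% in R1 and 48.2% in R2, Zbtb8os at 96.4% in R1 and 70.2% in R2 and Camta2, a calmodulin-binding transcription activator, at 51.2% in R1 and 25.1% in R2. The 0 of Tmed2 in R1 came from 65 reads and allows up to 4.62%. Mark3 rests on 109 and 596 upstream reads, 223 and 605 downstream reads and 695 and 533 skipping reads in R1 and R2, and the other 9 on fewer than 110 reads in R1 and fewer than 130 in R2. The exons of Tyw5, Dclk2 and Zbtb8os share a splice site or have flanks more than 4-fold apart. The muscle genes Myod1 (0.150 TPM in replicate 1 and 19.4 TPM in replicate 2) and Myog (0.40 and 34.2 TPM) also differed between the replicates. Their part in these differences was not tested.

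Of 32 splicing regulators 31 had 1 matching gene row, all over 1 TPM in both replicates, and Qki had none. Srsf11 was highest, at 725 TPM in replicate 1 and 447 TPM in replicate 2 (586 ± 196, SD, n = 2). The microexon activator Srrm4 stood at 15.7 and 14.7 TPM (15.2 ± 0.700), and Srrm3 at 37.0 and 21.2 TPM. Ptbp1, the repressor of progenitors, stood at 144 TPM in replicate 1 and 341 TPM in replicate 2, and its neuronal relative Ptbp2 at 104 and 130 TPM. Rbfox2 stood at 73.3 and 101.4 TPM, far over Rbfox1 (4.0 and 9.37 TPM) and Rbfox3 (6.19 and 5.69 TPM), the form of mature neurons. Ptbp1, Ptbp3, Mbnl1, Mbnl2, Mbnl3, Rbfox1 and Esrp2 were the 7 genes more than 2-fold higher in replicate 2, and 0 were so in replicate 1. Of the 14241 Ensembl genes at 1 TPM or more in both replicates, 5.84% were more than 2-fold higher in replicate 2 and 3.68% in replicate 1. The 7 of 31 lies over that background, but the list was chosen with earlier results known and no test was made. Whether these levels move with the differences between R1 and R2 was not tested.

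**Figure D4:**
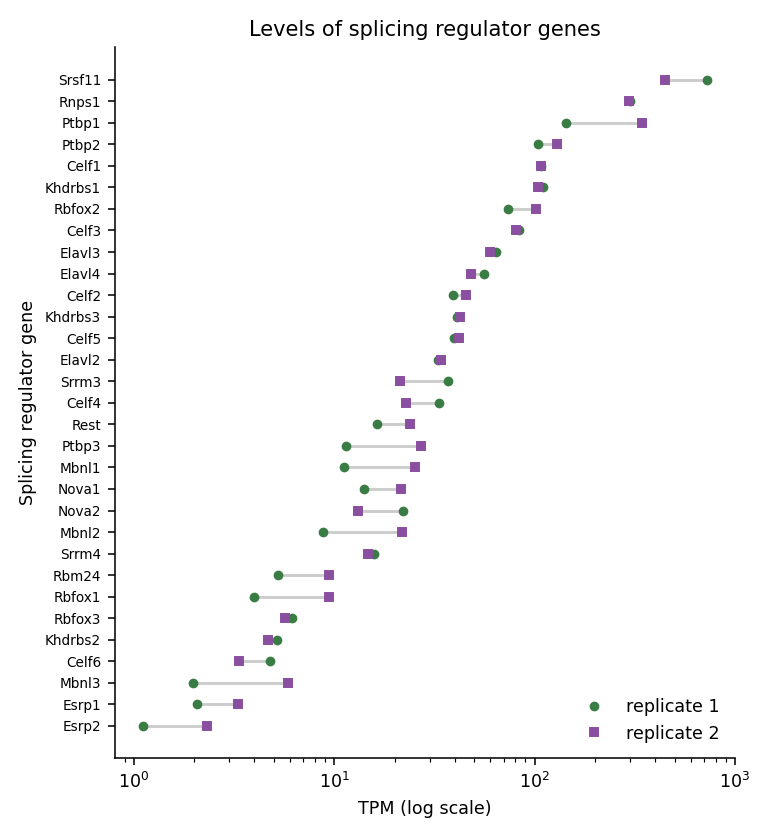
TPM (horizontal log axis) of the 31 matched splicing regulator genes in replicate 1 (circles) and replicate 2 (squares), ordered by mean along the vertical axis. Srsf11 leads at 725 and 447 TPM, Ptbp1 lies at 144 and 341 TPM, and Srrm4 at 15.7 and 14.7 TPM.

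Host gene levels overlapped widely between the inclusion classes. The median of mean TPM was 29.2 (quartiles 13.3 and 74.7) for hosts of microexons under 10%, 23.4 (11.5 and 55.6) at 10 to 90% and 22.2 (7.75 and 50.9) over 90%. A second readout was the TPM of transcripts that carry the microexon over that of transcripts that carry or skip it. It came from the mm10 tables, and only transcripts with the same ID and length in M21 entered. Transcripts that do not span the site were left out. This readout could be set beside junction inclusion for 220 members of their own splice sites. Their annotated transcripts with and without the exon summed to at least 1 TPM. The 2 measures lay within 20 points for 135 of them and more than 50 points apart for 37, at a median distance of 14.5 points and a Spearman's correlation of 0.530. Between replicates 1 and 2 the transcript share itself had one of 0.936, so the 2 readouts differed from each other more than the replicates did.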

How the data were processed

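Strand-specific polyadenylated RNA of 2 libraries was used. The authors deposited a junction list on mm9 with a read count per replicate, an exon table of Ensembl 65 models on mm9 and, per library, mm10 tables with expected counts and TPM per gene and transcript, per the file headers. The expected counts were not needed for any value, and TPM was used as deposited. Which aligner and junction caller were used is not given in the sources used here. Column 7 of the junction list was tested to equal R1 plus R2 in each row. Junctions were joined to exons by position and strand, and no mm9 or mm10 genome was read, so intron sequence was not analysed here.

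The members and gene lists were chosen with earlier results of these data known. Genes were named by fixed rules: every measured microexon of the host list, given in groups, the 5 shortest, the 10 deepest at 10 to 90%, the 5 deepest under 10% and over 90%, the 10 largest called differences between R1 and R2 and the 3 deepest with a length not divisible by 3. Some genes that these rules name are not reported here. Further genes, relatives and runs were chosen after their values were seen. Replicates are biological per the labels, but p-values were not computed. Each SD comes from 2 libraries only and covers the spread between those. Inclusion and calls were tested on simulated data. pandas 2.3.3, numpy 2.4.6 and matplotlib 3.10.9 were used under Python 3.11.15.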

Additional observations from a re-analysis of the deposited data

Results flagged for a closer look

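Microexons outside the Ensembl 65 table stood in a deposited exon table that otherwise entered only as an alternative setting. The authors' table of exons from models assembled by Cufflinks held 825 exons of 3 to 27 bases with a junction at each side, 476 of them also in the Ensembl 65 table. Of the other 349, 233 had at least 20 pooled reads, and 21 of these joined known splice sites at both neighbours. With flanks within 4-fold, 9 remained, each above the 3 reads that a count of 0 allows. Of the 9, 5 had a length divisible by 3, beside 52.8% of all 825. Between 10 and 90% stood 8, beside 26.5% of the measured Ensembl 65 members, which were selected otherwise. The 9 were not screened for shared splice sites. The 23 base exon of Plekhg3 ends at the same base as a 20 base exon of the Ensembl 65 table. The receptor phosphatase Ptprs had a 27 base exon at 35.8% in R1 and 32.9% in R2, on 5006.5 pooled reads. Robo2, a Slit receptor, had a 12 base exon at 59.2% in R1 and 72.2% in R2. The RNA-binding gene Hnrnpc had a 26 base exon at 22.7% in R1 and 32.3% in R2, and the ceramide synthase gene Cers6 a 24 base exon at 44.2% and 40.3%. The genes were those of the neighbouring Ensembl exons. Whether these exons are in later annotations was not tested.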

How the results depend on the processing

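No paired analysis was possible because the 2 libraries form 1 group. The number of microexons stayed within 1.5 times 1074 under each setting: 922 to 1028 from R1 or R2 alone, 783 with 10 reads at each side, 825 from Cufflinks models and 876 with 1 per gene. The share with a length divisible by 3 was 66.0 to 66.4% from 1 library alone, 65.4% with 10 reads at each side, 64.0% with 1 per gene and 52.8% in Cufflinks models. The share under 90% inclusion was 40.2 to 41.3% from 1 library, 45.5% from the smaller flank, 39.9% at a minimum of 10 reads, 43.5% at 50 and 37.1% at 1, and 38.3% stood under 80%. It was 76.8% when every junction spanning the exon counted as skipping, on 1028 exons. Long junctions and those to other exons in between then enter. So do reads that skip several microexons together, as at the second exon of the run in Dctn1. The part of each was not tested, and longer exons were not counted in this way. The median inclusion was 98.5 to 98.7% from 1 library, 95.8% from the smaller flank, 98.6%, 97.4% and 99.7% at minima of 10, 50 and 1, and 51.6% with every spanning junction. The share called different between R1 and R2 was 2.78% at 20 points, 13.4% where intervals could overlap, 6.58% without a minimum and 17.4% with every spanning junction. Added after seeing the data, own splice sites with flanks within 4-fold gave 70.2% divisible by 3, 44.4% under 90% and a median of 97.2%, and leaving out collagen genes gave 65.1% and 43.3% for the first pair. Among the regulators the median log2 ratio of replicate 2 over replicate 1 was 0.05 with a pseudocount of 1 or 0.1. Depth limits values of exons with few reads, such as the 3 base exon of Clasp2, and 183 members could not be measured. Of the measured members 227 share a splice site and 105 have flanks more than 4-fold apart, 72 of them both.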
